A study of Mus musculus with 9 samples.

Results

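The regions of 3 histone marks were compared with each other inside 1 mouse pancreatic cancer cell line that lacks Kdm6a, the female KO line. Members were all regions of that line's 3 deposited lists that lie on autosomes 1 to 19. They numbered 13574 for H3K4me3, 17972 for H3K27ac and 19387 for H3K27me3, together 50933 of the 185632 regions of the whole series. The series profiled 3 such lines by chromatin immunoprecipitation followed by sequencing (ChIP-seq). Per the labels, the tissue of origin was pancreas, the strain was mixed C57BL/6-SV129, and the cells were grown, untreated, in F12/DMEM medium with EGF. It is a single line with 1 library for each mark, so there was no replicate, no p-value was computed, and the values describe these 3 libraries. A culture of many cells was assayed, so 2 marks at 1 place can lie on the same chromosome copy, on different copies or in different cells, which these data cannot tell apart. Whether Kdm6a is deleted was not examined here, since no gene was placed on these coordinates.

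Kdm6a is an enzyme that takes methyl groups off histone H3 at lysine 27. Trimethylation of that lysine, H3K27me3, is laid down by Polycomb repressive complex 2 and is found over silent genes, often in broad domains. Acetylation of the same lysine, H3K27ac, marks active promoters and enhancers, and 1 histone tail cannot carry both at once. H3K4me3 marks promoters, and a promoter that carries H3K4me3 together with H3K27me3 is termed bivalent.

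The 3 marks covered very different lengths of the genome. H3K4me3 regions covered 90.0 Mb, which is 3.64% of the autosomes, H3K27ac regions 198 Mb (8.01%) and H3K27me3 regions 329 Mb (13.3%). Together they covered 517 Mb, or 20.9% of the autosomes. Of this union, 58.7% carried H3K27me3 alone and 21.3% H3K27ac alone. H3K4me3 with H3K27ac took 13.0%, and H3K4me3 with H3K27me3 but no H3K27ac 1.05%. H3K27ac with H3K27me3 but no H3K4me3 took 2.58% and all 3 marks 1.45%. H3K4me3 alone took 1.97%.

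Width and density ran in opposite order across the marks. The median width was 6.2 kb for H3K4me3, 7.8 kb for H3K27ac and 9.0 kb for H3K27me3, with quartiles of 3.4 and 8.6 kb, 4.8 and 12.8 kb, and 5.2 and 17.6 kb. Regions of at least 100 kb numbered 0, 21 and 345. The median read density was 147 reads per kb for H3K4me3, 46.4 for H3K27ac and 34.7 for H3K27me3. The libraries held 15873829, 12153207 and 17976134 reads in autosomal regions, so densities compare the marks only as deposited and not per unit of depth. H3K4me3 density had the widest spread, with a 95th percentile 8.47 times the 5th, against 3.78 times for H3K27ac and 3.11 times for H3K27me3. Reads were most unevenly shared in the H3K27me3 list, where the densest 10% of the regions held 49.95% of the reads, against 32.7% for H3K27ac and 23.1% for H3K4me3. Length was unevenly shared in the same order, with 44.3, 33.5 and 24.4% of it in the widest 10% of the regions. The read shares therefore reflect width as well as density. H3K27me3 regions also lay close together, with a median gap of 6.6 kb between neighbours, against 28.0 kb for H3K27ac and 46.4 kb for H3K4me3. The smallest gap differed by list, at 0.4 kb for H3K4me3, 0.6 kb for H3K27ac and 0.8 kb for H3K27me3. Whether nearby stretches had been joined over a different gap for each mark was not tested. Widths, densities and gaps therefore compare the lists as deposited. Wider regions were denser within each list, with a Spearman correlation of width and density of 0.68 for H3K4me3, 0.37 for H3K27ac and 0.55 for H3K27me3. These correlations are across regions of 1 library each, and width and density share the same reads.

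**Figure D1:**
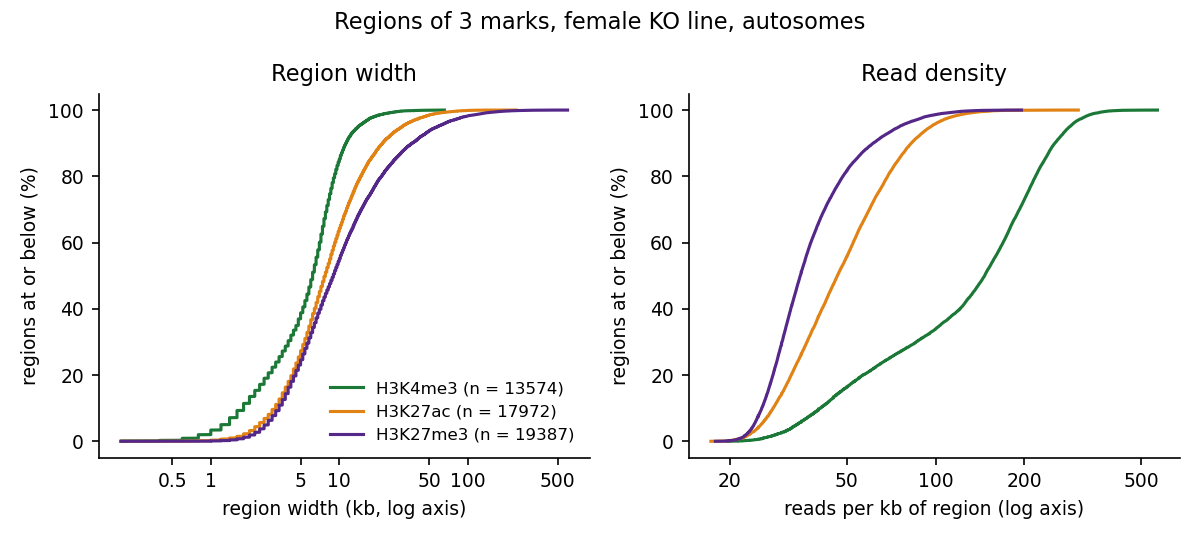
Cumulative share of regions (%) by region width (left, kb, log axis) and by reads per kb of region (right, log axis), with 1 line for each mark of the female KO line. H3K27me3 regions are the widest and H3K4me3 regions the densest, and the H3K4me3 density curve bends, with a low-density part below about 100 reads per kb.

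The densest H3K4me3 region of at least 2 kb lay on chromosome 3 from 27606401 to 27610800 and held 540 reads per kb over 4.4 kb. H3K27ac covered all of it, and no H3K27me3 region touched it. The densest H3K27ac region, on chromosome 15 from 101145201 to 101177000, held 305 reads per kb over 31.8 kb. It contained 10.6 kb of H3K4me3 and no H3K27me3. The densest H3K27me3 region was also on chromosome 15, from 98614601 to 98642000, with 196 reads per kb over 27.4 kb. No H3K27ac region touched it, and its 2 H3K4me3 regions held 44.5 reads per kb, which is below the median of that mark.

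H3K4me3 and H3K27ac, the pair of active marks, shared the most length. An H3K27ac region overlapped 83.0% of the H3K4me3 regions (82.4 to 83.7%), and an H3K4me3 region overlapped 57.4% of the H3K27ac regions (56.6 to 58.1%). Ranges in parentheses are 95% Wilson intervals, computed as if regions were independent and showing counting error alone. To give the level that the lists' own lengths and spacing produce, 1 list was moved along each chromosome by 20 fixed distances from 2.5 to 50 Mb. The same shares for such shifted lists were 12.3% (11.2 to 14.7% over the 20 shifts) and 8.82% (7.85 to 10.4%). The shared length was 74.4 Mb, 9.76 times the 7.63 Mb of shifted lists. It made up 82.7% of the H3K4me3 length and 37.6% of the H3K27ac length. Of 11512 overlapping pairs, 46.7% had the H3K4me3 region inside the H3K27ac region and 25.6% the reverse. Shifts of only 100 kb to 1 Mb, which keep a list near its own place, gave a ratio of 5.0.

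H3K4me3 and H3K27me3 shared 12.9 Mb, almost exactly the 13.0 Mb of shifted lists (10.9 to 18.2 Mb). The ratio was 0.996. Against shifts of 100 kb to 1 Mb the ratio was 0.530, and the shared length lay below that of each of these 20 shifts (21.5 to 26.8 Mb). By number of regions the picture differed, since an H3K27me3 region overlapped 29.1% of the H3K4me3 regions (28.3 to 29.8%), against 17.4% for shifts of 2.5 to 50 Mb (15.1 to 23.0%) and 30.0% for the short shifts (26.8 to 32.7%). The regions that met H3K27me3 were therefore more numerous than at far shifts, but the length in common was not greater. Of 4030 overlapping pairs, 44.1% had the H3K4me3 region inside the H3K27me3 region and 53.3% were staggered, each reaching beyond the other. In 18.7% of the H3K4me3 regions H3K27me3 covered at least 50% of the width, and in 13.1% all of it.

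H3K27ac and H3K27me3, which compete for the same lysine, shared less length than at any of the 20 far shifts. They had 20.8 Mb in common, against 28.1 Mb (24.2 to 39.0 Mb) for shifted lists, a ratio of 0.740. With shifts of 100 kb to 1 Mb the level was 51.2 Mb and the ratio 0.407. An H3K27me3 region nevertheless touched 22.4% of the H3K27ac regions (21.8 to 23.0%), against 18.3% at far shifts (16.6 to 23.4%) and 29.7% at short shifts. Seen from the other side, an H3K27ac region touched 18.4% of the H3K27me3 regions (17.9 to 18.96%), against 16.01% and 24.9%. The meetings were mostly staggered, as in 72.2% of 4473 overlapping pairs, with a median common length of 3.6 kb. H3K27me3 covered at least 50% of the width in 10.95% of the H3K27ac regions and all of it in 5.65%.

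**Figure D2:**
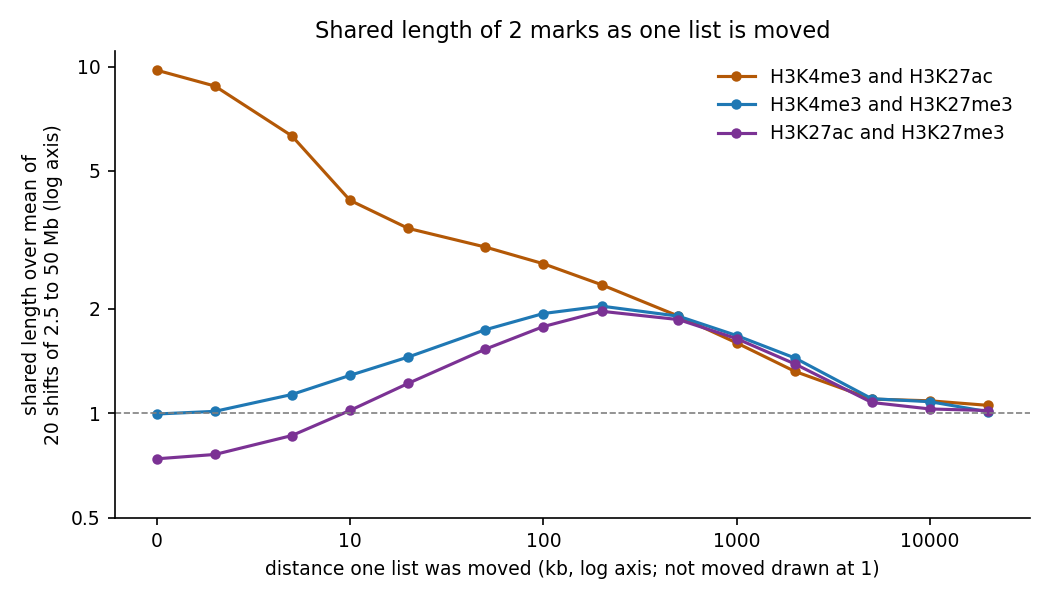
Shared length of each pair of marks (vertical log axis, as a multiple of the mean of 20 shifts of 2.5 to 50 Mb) against the distance that 1 list was moved (kb, log axis, unmoved lists drawn at the left end). The active pair falls steadily from 9.76, while both pairs with H3K27me3 start at 0.996 and 0.740, rise to about 2 near 200 kb and come back towards 1.

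Moving 1 list step by step showed at which distance the pairs met. The length shared by H3K4me3 and H3K27ac fell from 74.4 Mb to 48.1 Mb at 5 kb, 31.4 Mb at 10 kb and 20.6 Mb at 100 kb. The length shared by H3K27ac and H3K27me3 rose from 20.8 Mb to 28.7 Mb at 10 kb, 50.1 Mb at 100 kb and 55.4 Mb at 200 kb. It then fell to 46.2 Mb at 1000 kb and 30.3 Mb at 5000 kb. H3K4me3 with H3K27me3 followed the same course, with 12.9 Mb unmoved, 26.4 Mb at 200 kb and 14.3 Mb at 5000 kb. Among the distances tried up to 20000 kb, both pairs with H3K27me3 thus had least in common in place and most at 200 kb, although for H3K4me3 the lowest of the 20 far shifts gave less, 10.9 Mb.

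Distances between regions that did not overlap followed the same lines. An H3K27ac region without H3K4me3 lay at a median of 34.8 kb from the nearest H3K4me3 region, against 148 kb with shifted lists (123 to 157 kb over 10 shifts). For an H3K4me3 region without H3K27me3 the nearest H3K27me3 region was at a median of 42.0 kb, against 289 kb (212 to 339 kb). For an H3K27ac region without H3K27me3 the median was 59.0 kb, against 310 kb (242 to 346 kb), and 11.2% of these regions had H3K27me3 within 5 kb (10.7 to 11.7%), against 4.02% with shifted lists. Each shifted value is over all regions of the mark that missed the shifted list. It thus takes in regions that overlapped the other mark in place, which the observed values leave out. Short shifts were not used for distances. By these medians, regions without overlap lay nearer to the other mark than to its far-shifted lists.

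The most extended coincidences of H3K27ac and H3K27me3 were few. Their common length fell into 4473 stretches with a median of 3.6 kb, of which 412 were at least 10 kb and held 29.2% of the common length. The longest stretch was 62.0 kb on chromosome 6, from 72145401 to 72207400, where the H3K27ac region held 88.0 reads per kb and the H3K27me3 region 72.4. The next, also on chromosome 6, ran for 56.6 kb from 52116801 to 52173400. There the H3K27me3 region was dense, at 166 reads per kb, the H3K27ac region held 46.7 reads per kb, close to its list's median, and H3K4me3 covered 42.6 kb. The third, 39.2 kb on chromosome 4 from 134694401 to 134733600, had 43.6 reads per kb for H3K27ac and 67.3 for H3K27me3. All these densities are means over whole regions. The H3K27me3 regions reached beyond the stretches, so their densities are not those of the stretches alone.

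H3K4me3 regions fell into 4 states by the marks that overlapped them. H3K27ac alone was at 8679 regions (63.9%), both marks at 2592 (19.1%), H3K27me3 alone at 1354 (9.97%) and neither at 949 (6.99%). The share with both lay below the 24.1% that the product of the single shares gives, and above the 2.38% found when both other lists were shifted together. Regions with H3K27me3 alone were narrow and sparse, with a median of 2.4 kb and 53.8 reads per kb. Regions with H3K27ac alone had a median of 6.8 kb and 172 reads per kb, and those with both 7.0 kb and 148 reads per kb. Regions with neither mark were the narrowest, at 1.8 kb and 50.6 reads per kb.

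Within 1 width class, the medians with H3K27me3 alone and with H3K27ac alone lay far apart from 4 kb up and close together below. Among H3K4me3 regions of 4 to 6 kb the median was 82.9 reads per kb with H3K27me3 alone (n = 201) and 154 with H3K27ac alone (n = 1607). Among regions of 6 to 8 kb these were 91.9 (n = 59) and 190 (n = 2309), and the upper quartile of the first, 109, lay below the lower quartile of the second, 150. At 2 to 4 kb the medians were 55.4 with H3K27me3 alone (n = 617) and 55.4 with H3K27ac alone (n = 1112), and below 2 kb they were 43.2 (n = 458) and 40.6. Most regions with H3K27me3 alone lie in these narrow classes. Regions with both marks stood in between above 4 kb, at 131 reads per kb for 4 to 6 kb and 156 for 6 to 8 kb. At 2 to 4 kb they were denser than either, at 68.8 (n = 295), and below 2 kb they held 42.9 (n = 79).

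H3K4me3 regions with H3K27me3 alone, the candidates for the bivalent state, lay mostly within H3K27me3. H3K27me3 covered 92.8% of their length, and 1140 of the 1354 lay within it entirely. The H3K27me3 regions that overlapped them had a median of 57.2 reads per kb over their whole width, and those that overlapped H3K4me3 regions with both marks 51.3. Over all H3K27me3 regions the median was 34.7, where each region counts once, whereas in the other medians it counts once for each H3K4me3 region it meets. In regions with both marks, H3K27ac covered a median of 92.3% of the width and H3K27me3 46.7%. Regions with H3K27me3 alone were narrower, with a median of 2.4 kb against 7.0 kb with both. These covered shares were not set beside shifted lists or split by width, so the part of width in them was not tested. H3K27ac and H3K27me3 shared at least 1 bin of 200 bp in 93.9% of these regions, and together they shared 36.2% of the length. H3K27me3 covered at least 50% of the width in 1238 of the 2592 regions and less than 25% in 674.

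**Figure D3:**
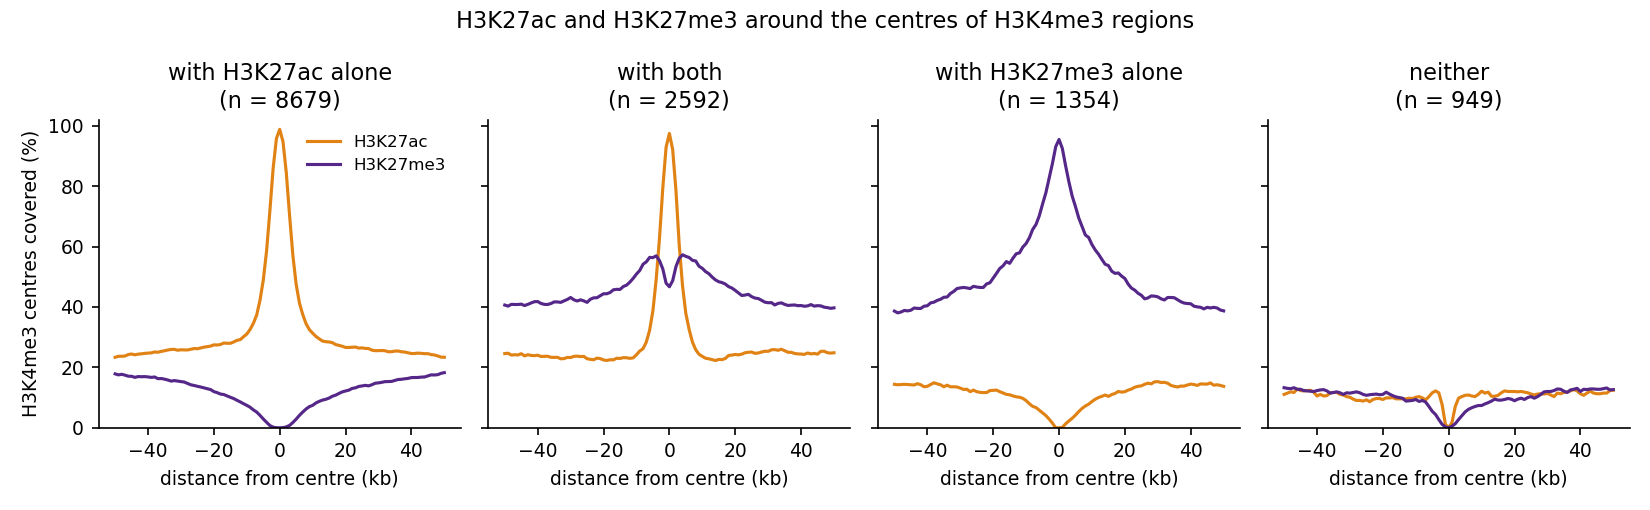
Share of H3K4me3 region centres (%) covered by H3K27ac and by H3K27me3 at each distance from the centre (kb), in 4 panels by state. The states were assigned by overlap, which sets the values near 0 kb. In regions with both marks H3K27me3 dips at the centre to 46.7% between shoulders of 56.5% at 5 kb, while H3K27ac peaks at 97.4%.

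Around H3K4me3 centres the states differed well beyond the regions themselves. Values at a distance are means of the left and right side. At 20 kb from the centre H3K27me3 covered 49.5% of the places for regions with H3K27me3 alone, 44.9% for those with both and 12.1% for those with H3K27ac alone. At 50 kb it still covered 38.7, 40.2 and 18.1%. H3K27ac at 50 kb covered 14.1% with H3K27me3 alone, 24.7% with both and 23.4% with H3K27ac alone. At 50 kb, regions with both marks thus had about as much H3K27me3 around them as regions with H3K27me3 alone. At that distance they also had about as much H3K27ac as regions with H3K27ac alone. At 10 kb regions with both marks had less of each. H3K27me3 covered 51.8% with both and 60.8% with H3K27me3 alone, and H3K27ac 23.9% with both and 31.2% with H3K27ac alone. Regions with neither mark had the least of both together at 20 kb, with H3K27ac at 10.7% and H3K27me3 at 10.02%.

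Among the widest H3K4me3 regions all 3 carried both marks. The widest ran for 65.8 kb on chromosome 17, from 25953201 to 26019000, with 205 reads per kb, 53.8 kb under H3K27ac and 7.4 kb under H3K27me3. On chromosome 9 from 107435201 to 107495200, H3K27ac lay over 59.2 of 60.0 kb and H3K27me3 over 0.8 kb. On chromosome 8 from 73276201 to 73335200, the values were 58.4 and 19.2 of 59.0 kb. The widest region with H3K27ac alone was 54.4 kb, from 34043001 to 34097400 on chromosome 17, with 287 reads per kb. Next in width came chromosome 19 from 6044201 to 6091800 (47.6 kb) and chromosome 11 from 51425801 to 51470200 (44.4 kb). With H3K27me3 alone the widest were far shorter. They spanned 13.4 kb on chromosome 7 from 86855001 to 86868400, 11.4 kb on chromosome 3 from 89117801 to 89129200 and 11.2 kb on chromosome 2 from 3333801 to 3345000. H3K27me3 covered 9.8, 11.4 and 2.6 kb of them. With neither mark the widest held 175 reads per kb over 10.2 kb, from 3097601 to 3107800 on chromosome 11. Next came 10 kb on chromosome 7 from 129120201 to 129130200 and 9.4 kb on chromosome 5 from 101223201 to 101232600.

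Width separated the H3K4me3 regions that carried H3K27ac from those that did not. H3K27ac overlapped 38.7% of the regions under 2 kb (36.3 to 41.1%), 59.9% at 2 to 4 kb, 87.7% at 4 to 6 kb, 97.2% at 6 to 8 kb and 1125 of 1126 regions of at least 12 kb. With the H3K27ac list shifted, these shares rose only from 8.89 to 18.5%. H3K27me3 was at 34.6% under 2 kb, 38.8% at 2 to 4 kb, 24.01% at 8 to 12 kb and 27.2% (24.7 to 29.8%) at 12 kb or more, while its shifted level rose from 14.6 to 22.5%. The marks also parted by density. In the 25% of H3K4me3 regions with the lowest density 53.0% carried H3K27ac and 37.2% H3K27me3, and in the densest 25% the shares were 99.9 and 15.5%. The densest 25% thus met H3K27me3 less often than shifted lists did, at 18.6%. The share with H3K27me3 was highest in the second-lowest density class, at 39.5%. The lowest and highest density classes also differed in width, with medians of 2.2 and 8.0 kb, so this split is not separate from that by width.

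**Figure D4:**
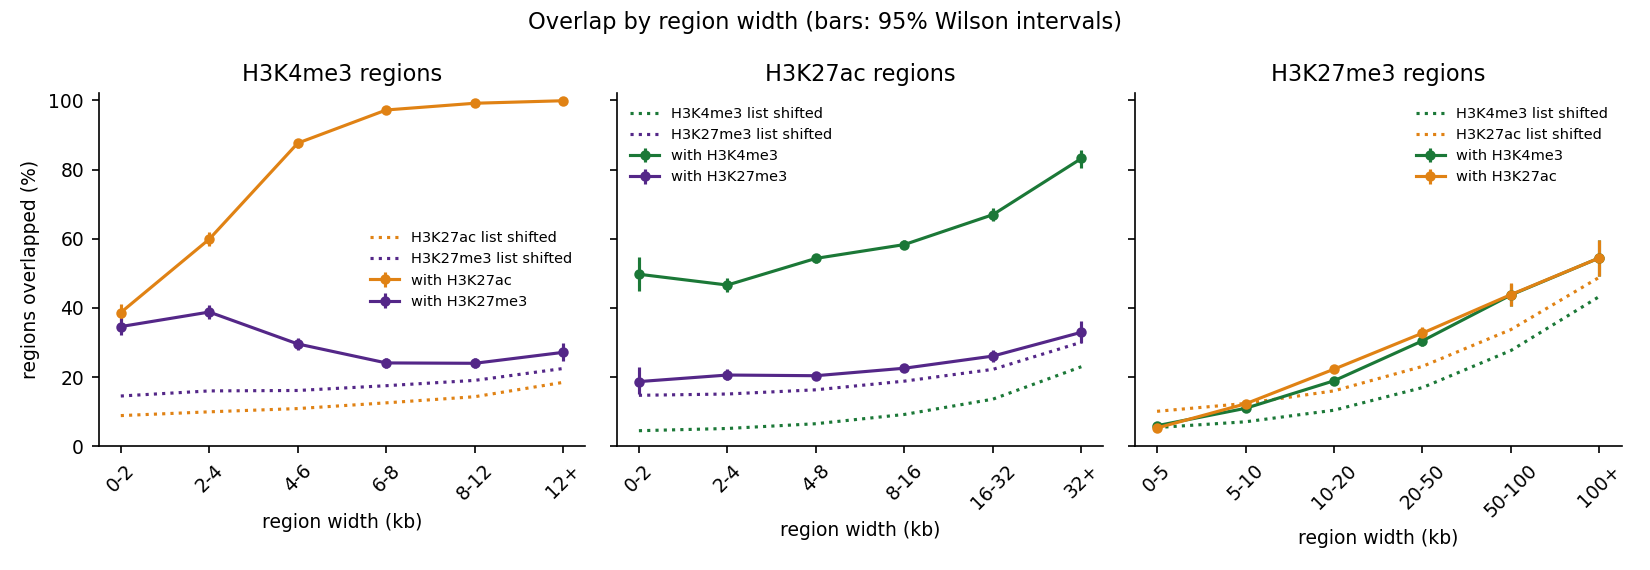
Share of regions (%) overlapped by each other mark, by region width (kb), for H3K4me3, H3K27ac and H3K27me3 regions, with 95% Wilson intervals and with dotted lines for the other mark's list shifted by 2.5 to 50 Mb. H3K27ac rises from 38.7% to nearly all H3K4me3 regions with width, whereas at H3K27me3 regions both active marks rise beside their shifted levels.

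H3K27ac regions divided into those at H3K4me3 and those away from it. Besides the 10310 regions that overlapped H3K4me3, 735 lay under 5 kb from it, 3877 at 5 to 50 kb and 3050 (17.0%) at 50 kb or more. Regions at H3K4me3 were denser, with a median of 57.7 reads per kb against 33.1, 35.1 and 34.2 for the 3 classes away from it. Their median width of 8.4 kb was also larger than that of the other classes, 6.2 to 7.4 kb. Of the densest 25% of H3K27ac regions 89.8% overlapped H3K4me3, and of the least dense 25% only 15.5% did.

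By overlap of at least 1 bp, H3K27me3 touched the H3K27ac regions at H3K4me3, which are wider, more often than the others. The shares were 26.6% at H3K4me3 (25.8 to 27.5%), 18.0% under 5 kb, 19.6% at 5 to 50 kb and 12.8% at 50 kb or more (11.6 to 14.0%). As a share of length H3K27me3 covered 10.2, 12.2, 12.3 and 9.12% of the 4 classes, so the order was not kept by length. For far shifts the shares of regions were 19.1, 18.6, 18.0 and 15.9%. The most distal class was thus the one below each of its 20 far shifts (14.4 to 17.0%). The class at H3K4me3 lay above each of its own (17.2 to 25.1%), and the classes between lay within theirs. Short shifts gave 32.8, 32.8, 29.1 and 19%, above the observed share in all 4 classes.

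The 3 widest H3K27ac regions differed in their H3K4me3 content. The widest spanned 238.6 kb on chromosome 8, from 129174601 to 129413200, with 104 reads per kb. H3K4me3 lay over 11.4 kb of it in 3 regions, and H3K27me3 over none. On chromosome 17 from 84371401 to 84568400, a region of 197 kb held 124 reads per kb, with 6.4 kb of H3K4me3 and 2.4 kb of H3K27me3. A region of 142 kb on chromosome 10, from 79505001 to 79647200, had H3K4me3 over 107 kb. Away from H3K4me3 by more than 5 kb, the widest H3K27ac regions were 96.2 kb on chromosome 14 from 8704201 to 8800400, 81.2 kb on chromosome 3 from 121316001 to 121397200 and 79.6 kb on chromosome 6 from 115367801 to 115447400. They held 86.0, 76.8 and 99.8 reads per kb, of which the last lies above the 95th percentile of the list, 96.5, and they touched no H3K27me3 region.

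Most H3K27me3 regions were free of both active marks. Neither mark overlapped 14780 of the 19387 regions (76.2%), which held 58.3% of the covered length. H3K27ac alone was at 6.77%, H3K4me3 alone at 5.35% and both at 11.6%. The share with both was above the 3.13% that the product of the single shares gives, and closer to the 9.15% found when both active lists were shifted together. Regions free of both marks had a median of 7.6 kb and 32.5 reads per kb, against 18.4 kb and 50.5 reads per kb for regions with both. Within a width class the difference was smaller. At 20 to 50 kb the medians were 43.3 reads per kb without active marks (n = 1719), 57.3 with H3K4me3 alone (n = 268), 47.7 with H3K27ac alone (n = 334) and 57.7 with both (n = 633). At 5 to 10 kb they were 30.1, 38.1, 35.0 and 39.7.

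H3K27me3 regions met active marks more often the wider they were, while the share of their length under active marks was highest at 10 to 20 kb. H3K27ac overlapped 5.32% of those under 5 kb (4.70 to 6.01%), below the 10.1% of shifted lists, and 54.5% of those of at least 100 kb (49.2 to 59.7%), against 48.9%. As a share of length, H3K27ac covered 3.51% of the regions under 5 kb, 5.95% at 5 to 10 kb, 8.18% at 10 to 20 kb, 7.53% at 20 to 50 kb, 5.39% at 50 to 100 kb and 4.25% at 100 kb or more. The shifted level stayed between 8.04 and 8.95%. H3K4me3 covered 3.71, 4.32, 4.94, 4.55, 3.37 and 2.01% in the same classes, against shifted levels of 3.68 to 4.28%. By density, H3K27ac touched 3.20% and H3K4me3 2.74% of the least dense 25% of H3K27me3 regions, and 40.7 and 41.3% of the densest 25%. Both shares lay below the shifted level in the least dense regions (11.8 and 6.755%) and above it in the densest (23.5 and 17.7%). For these width and density classes only far shifts were used. Over the whole list, short shifts gave 24.9% for H3K27ac and 17.1% for H3K4me3, against 18.4 and 17.0% in place.

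The 345 H3K27me3 regions of at least 100 kb held a median of 1 H3K4me3 region each, with a range of 0 to 8, and 112 of them held neither active mark. The widest, 598.4 kb on chromosome 11 from 118292201 to 118890600, held 51657 reads, with 12 kb of H3K4me3 and 18.4 kb of H3K27ac. The next, 464.8 kb on chromosome 9 from 45108801 to 45573600, touched no region of either active mark. The third, 428.6 kb on chromosome 8 from 123199601 to 123628200, was denser, at 110 reads per kb, with 1.0 kb of H3K4me3 and 1.4 kb of H3K27ac inside. After the region on chromosome 9, the widest without active marks were 322.6 kb on chromosome 6 from 114121401 to 114444000 and 317.8 kb on chromosome 4 from 138059401 to 138377200. The 3 had similar densities, 71.7, 71.2 and 73.2 reads per kb.

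Active marks covered less from 10 to 5 kb inside wide H3K27me3 regions than at their borders and outside. Coverage was highest from 1 to 5 kb outside, but only modestly above that of the bands farther out. At the 8362 borders of the 4181 regions of at least 20 kb, H3K27ac covered 6.08% of the places from 10 to 5 kb inside, 16.8% of the last 1.2 kb inside and 19.2% from 1 to 5 kb outside. From 10 to 25 kb outside it covered 16.2%, against 8.01% of all autosomes. H3K4me3 covered 3.54, 10.2 and 11.4% in the same 3 bands, and 8.57% from 10 to 25 kb outside, against 3.64% of all autosomes. From 10 to 5 kb inside, both marks were thus near or below their genome-wide level, and outside they stayed at more than that level up to 50 kb, where they covered 16.8 and 8.82% of the band from 25 kb on.

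**Figure D5:**
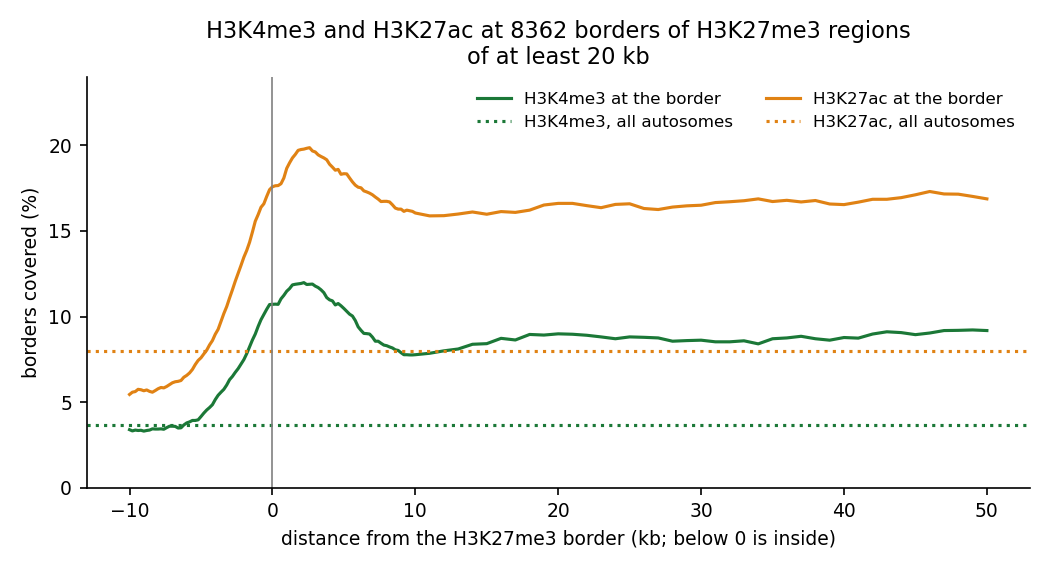
Share of borders (%) covered by H3K4me3 and by H3K27ac against distance from the border of H3K27me3 regions of at least 20 kb (kb, below 0 is inside), with dotted lines for the share of all autosomes. Both marks rise from inside to a peak between 1 and 5 kb outside and stay above their autosomal level out to 50 kb.

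Inside H3K27me3 regions, the centres of H3K4me3 regions with and without H3K27ac took different places. Of H3K4me3 centres inside H3K27me3 regions of at least 20 kb, 39.8% of those with both marks (n = 679) and 15.8% of those without H3K27ac (n = 754) lay in the outer 20% of the region, counting both ends. Centres spread evenly would put 20% there. The inner 20% held 12.2 and 20.7%. In H3K27me3 regions under 10 kb the outer 20% held 27.9% (n = 233) and 8.73% (n = 275). Over the whole list, H3K4me3 regions with both marks were wider, with a median of 7.0 kb against 2.4 kb with H3K27me3 alone. Positions were not split by H3K4me3 width or set beside shifted lists, so the part of width in this difference was not tested.

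On 18 of 19 autosomes covered length rose from H3K4me3 to H3K27ac to H3K27me3. The exception was chromosome 3, where H3K27ac (6.49%) and H3K27me3 (6.38%) were nearly equal and in reverse order. Chromosome 11 had the highest coverage of all 3 marks, 6.65% for H3K4me3, 12.8% for H3K27ac and 21.5% for H3K27me3. The share of H3K4me3 regions with H3K27ac varied little, from 80.4% on chromosome 10 to 85.9% on chromosome 19. Their share with H3K27me3 varied from 19.05% on chromosome 13 to 37.9% on chromosome 6, and that with both marks from 10.7 to 25.3% on the same chromosomes. H3K27me3 touched 11.4% of the H3K27ac regions of chromosome 13 and 33.8% of those of chromosome 6. The length shared by H3K27ac and H3K27me3 was below the mean of the shifted lists on 18 of 19 autosomes, with ratios from 0.484 on chromosome 13 to 1.01 on chromosome 15. Chromosomes with more H3K4me3 had more H3K27me3, with a Pearson correlation of 0.80 and a Spearman correlation of 0.77 over the 19 autosomes, which come from the same 2 libraries.

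At the scale of 1 Mb the repressive and active marks went together. Over 2406 windows of 1 Mb past the first 3 Mb of each autosome, covered shares had a Spearman correlation of 0.90 for H3K4me3 and H3K27ac, 0.78 for H3K4me3 and H3K27me3 and 0.73 for H3K27ac and H3K27me3. The Pearson correlations were lower, at 0.84, 0.52 and 0.53 in the same order. These describe windows of the same 3 libraries, taken at the same positions, and carry no test. With the windows divided into 4 equal classes by H3K4me3 coverage, mean H3K27ac coverage rose from 0.415 to 20.3% and mean H3K27me3 coverage from 0.609 to 31.6%. Within the classes the correlation of H3K27ac and H3K27me3 was 0.12 to 0.23. In the class with most H3K4me3, H3K27ac and H3K27me3 shared 2.74% of the window length on average, against 6.58% for the mean product of their shares in each window. A window on chromosome 10 from 79000001 to 80000000 had the highest H3K4me3 coverage, 48.9%, with H3K27ac at 61.6% and H3K27me3 at 40.2%. The window with most H3K27me3, 92.1%, was on chromosome 8 from 12000001 to 13000000, with 1.0% H3K4me3 and 0.700% H3K27ac.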

How the data were processed

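Per the submitters' processing notes, Bowtie 1.1.2 and SICER 1 were used, with mm9 as the build. The control library, SICER's settings and library depth are not stated in those notes or labels. Each deposited list has no header and gives chromosome, start, end and a whole number, read here as a region's count of reads because of its values. From the 6 lists of the other lines only the number of rows was read.

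Lists were turned into bins of 200 bp with chromosome lengths from GenomeInfoDb 1.38.1 (Python 3.11.15, numpy 2.4.6, pandas 2.3.3, scipy 1.17.1, matplotlib 3.10.9). Overlap means at least 1 bp. Shifts were circular within chromosomes, by multiples of 2.5 Mb, or of 100 kb in both directions for short shifts. They use fixed distances, give a level and no test, and can place regions in the unsequenced start of a chromosome. Overlaps of 6 ordered pairs of lists were checked with bedtools 2.31.1, with 0 differences, and 200 of 200 planted overlaps were found in lists tested on simulated data. Named regions were the 3 widest of each mark or state, the densest of each mark and the 3 longest stretches shared by H3K27ac and H3K27me3. The part of the series, members and comparisons were chosen with earlier results of these data known. The gene table used here is of GRCm38.p6, another build, so no gene or sequence was placed. Alternatives were an overlap of 50%, regions at or above their list's median count, merging within 1 kb, lists of the same covered length, short shifts and the omission of each autosome.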

Additional observations from a re-analysis of the deposited data

Results flagged for a closer look

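Regions on the X chromosome lay outside the autosomal comparisons, and the lists held none on Y. There were 482 H3K4me3, 529 H3K27ac and 1965 H3K27me3 regions on X. H3K27me3 covered 9.60% of X, which is 0.721 times its autosomal share, while H3K4me3 covered 1.22% (0.334 times) and H3K27ac 1.77% (0.221 times). H3K27me3 regions of X were narrower than on autosomes, with a median of 5.4 kb, and held 33.3 reads per kb over their summed length, against 54.6 on autosomes. An H3K27me3 region overlapped 47.9% of the H3K4me3 regions of X (43.5 to 52.4%), above the highest autosomal share, 37.9% on chromosome 6. It also overlapped 37.1% of the H3K27ac regions of X (33.0 to 41.2%), where the highest autosomal share was 33.8%, inside that interval. No shifted level was computed for X, so these shares have no such level beside them. H3K4me3 regions of X were also narrower than on autosomes, with a median of 4.2 against 6.2 kb. They held 134 reads per kb over their summed length, against 176 on autosomes. The number of X chromosomes in this line is not given in the sources used here.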

How the results depend on the processing

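Of 46 values recomputed under alternatives, 11 stayed inside the counting interval or the range over shifts of the reported value and 35 did not, and no ratio that was above or below 1 at all 20 far shifts changed side. In the order H3K27ac, H3K27me3 and both at H3K4me3 regions, H3K4me3 and H3K27me3 at H3K27ac regions, then H3K4me3 and H3K27ac at H3K27me3 regions, the shares with at least 50% of the region covered were 79.7, 18.7, 8.35, 44.5, 10.95, 2.59 and 4.54%. With only regions of at least the median count they were 80.5, 18.2, 13.7, 58.8, 20.1, 12.1 and 18.1%. With regions merged within 1 kb they were 84.1, 30.0, 20.04, 60.1, 23.3, 19.4 and 20.7%. With lists of the same covered length they were 42.4, 9.72, 2.10, 88.8, 6.11, 57.9 and 21.8%. That last setting keeps all H3K4me3 regions but 5518 H3K27ac and 1512 H3K27me3 regions, so lower shares at H3K4me3 follow from the shorter lists. The shared length over shifted lists became 11.9 and 12.6 for H3K4me3 and H3K27ac with regions of at least the median count and with lists of the same covered length, and 5.0 with short shifts. For H3K4me3 and H3K27me3 it became 0.617, 1.41 and 0.530, so its side of 1 depended on the setting. For H3K27ac and H3K27me3 it became 0.524 with lists of the same covered length and 0.407 with short shifts. Leaving out each autosome in turn gave 9.63 to 10.3, 0.980 to 1.04 and 0.726 to 0.761. No paired analysis was possible because each mark had 1 library. Library depth is unknown, so how many weak regions each list lacks cannot be given.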
